A study of Homo sapiens with 17 samples.

Results

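The binding sites described here are FOXA3 peaks that lay outside every peak of FOXA1 and FOXA2. They were taken from the ChIP-seq peak list of Flag-tagged FOXA3 lacking its CTD (C-terminal domain), the form named FOXA3dCTD in the labels. Of the 6763 peaks of this list on chromosomes 1 to 22 and X, 401 shared no base with a peak of FOXA1FL, FOXA1dCTD, FOXA2FL or FOXA2dCTD, where FL stands for full length. These 401 were selected on their lack of overlap with the called FOXA1 and FOXA2 peaks. They are called FOXA3-only peaks below, a name that refers to these 4 lists and to nothing else. They made up 5.93% of the list (Wilson 95% interval 5.39 to 6.52), a share that the selection itself fixed.

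All samples came from U2OS, a human osteosarcoma cell line, in stable lines that carry the factor on a doxycycline-inducible Tet-on construct. The genotypes used here were Tet-on FOXA1, FOXA1dCTD, FOXA2, FOXA2dCTD, FOXA3, FOXA3dCTD, SOX2 and SOX2FOXA2CTD, the last a fusion of SOX2 with the CTD of FOXA2. Each was treated with doxycycline at 500 ng/ml for 4 days, precipitated with a Flag antibody and sequenced as 2 biological replicates. One input sample completes the 17 samples, and no sample of uninduced cells was used here. The factors were therefore expressed from an added construct, in a cell line that is not a liver or endoderm cell, and whether a line was 1 clone is not given in the sources used here.

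FOXA1, FOXA2 and FOXA3 are forkhead transcription factors that share a winged-helix DNA-binding domain and recognise TGTTTAC-like sequence. They are known as pioneer factors, since they can bind sites in closed chromatin, and they act in the development of endoderm, liver and gut. FOXA3 is the family member best known from liver and gut epithelium, and the regions outside the shared DNA-binding domain differ most between the 3 proteins.

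Each of the 8 factor groups has 1 combined list made from both replicates, so no comparison below has a test between replicates. The intervals are 95% intervals over peaks and cover counting error only. No read numbers were used, and how deeply each library was sequenced is unknown, as is the use of the input in peak calling. The lists were not equally strict. The weakest FOXA3dCTD peak had an irreproducible discovery rate (IDR, a measure of how well both replicates rank a peak) of 0.010, while the FOXA1 and FOXA2 lists reached 0.0501 to 0.351. Those 4 lists held 37219 to 52866 peaks each on the same chromosomes, so a FOXA3 site had many and often weak peaks to coincide with.

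Sequence was examined for the few FOXA3-only peaks at promoters. A RefSeq promoter window here runs from 250 bases before to 50 bases after an annotated start (GRCh38.p14). At least 1 window was overlapped by 14 of the 401 peaks (3.49%), against 308 of the 6362 other FOXA3dCTD peaks (4.84%). Both totals include peaks for which no windows were held, as with the start sites below, so both shares can be too low. The windows were searched on both strands for the forkhead sequences TGTTTAC and TGTTTGC, which differ in 1 base and cannot match the same place. Shown are stretches before the start picked because they hold a match, which most of the 14 peaks did not, each read on the strand of its gene, with the matches in capitals (GTAAACA and GCAAACA are the same sequences read from the other strand). They are the start of BOC, a co-receptor of hedgehog signalling, at 2 alternative starts; of TMEM87A, a Golgi membrane protein; of TENM3, a teneurin of neuronal wiring; of BTD, the biotinidase that recycles biotin; and of the long non-coding RNA gene LOC124902270.
BOC, chr3:113211494-113211556, plus strand: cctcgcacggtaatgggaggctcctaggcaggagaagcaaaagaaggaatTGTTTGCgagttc
BOC, chr3:113212011-113212115, plus strand: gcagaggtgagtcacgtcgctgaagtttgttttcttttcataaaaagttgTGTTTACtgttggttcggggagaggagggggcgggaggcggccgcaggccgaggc
TMEM87A, chr15:42273465-42273571, minus strand: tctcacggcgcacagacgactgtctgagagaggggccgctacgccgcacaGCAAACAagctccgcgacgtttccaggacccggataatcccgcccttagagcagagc
TENM3, chr4:182448881-182448987, plus strand: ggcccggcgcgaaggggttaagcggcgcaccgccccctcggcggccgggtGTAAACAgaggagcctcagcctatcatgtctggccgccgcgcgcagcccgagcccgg
BTD, chr3:15601495-15601712, plus strand: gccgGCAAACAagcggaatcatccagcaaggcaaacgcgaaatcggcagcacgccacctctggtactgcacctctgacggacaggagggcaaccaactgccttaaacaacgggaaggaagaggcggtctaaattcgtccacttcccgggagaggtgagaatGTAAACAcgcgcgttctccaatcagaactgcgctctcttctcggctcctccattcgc
LOC124902270, chr9:125538167-125538273, plus strand: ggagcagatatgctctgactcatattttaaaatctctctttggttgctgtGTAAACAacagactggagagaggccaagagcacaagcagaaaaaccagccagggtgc

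Counted over windows, 8 of the 21 under FOXA3-only peaks held a forkhead match (38.1%, 20.8 to 59.1), against 94 of 410 (22.9%, 19.1 to 27.2) under the other FOXA3dCTD peaks and 7.16% of all 34961 windows. The difference of 15.2 percentage points between both FOXA3 sets had an interval of -2.70 to 36.5, so it was not detectable at these numbers. Windows of alternative and of opposite starts overlap each other, so peaks are the safer unit. Of the 14 peaks over a window, 5 held a match within the peak (35.7%, 16.3 to 61.2), against 81 of 308 other peaks (26.3%, 21.7 to 31.5). The BTD match at 89 bases before that start also lies in the window of HACL1, a peroxisomal lyase gene on the opposite strand. AP-1 motifs, searched as TGACTCA on both strands, were present in 4 of the 21 windows (19.05%, 7.67 to 40.0), in 33 of the 410 (8.05%, 5.79 to 11.1) and in 4.92% of all windows. A match is a description of the sequence and does not show that a factor bound there. The sequence of the other FOXA3-only peaks was not analysed here.

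Over coding starts, the FOXA3-only peaks were few and had their weak value in the same replicate. In the 375 of them on chromosomes other than 8, for which start sites were used, 11 had their summit within 1 kb of the start of a protein-coding gene (2.93%, 1.65 to 5.18). Starts were held for 15812 of the 19974 coding genes, so counts at starts can be too low in both sets. The share over all FOXA3dCTD peaks was 4.90%, and over the other FOXA3dCTD peaks it was 302 of 6016 (5.02%, 4.50 to 5.601). The difference of -2.09 percentage points had an interval of -3.50 to 0.216, and its sign turned in settings given in the closing section. The peaks closest to a start were at LIMCH1, an actomyosin regulator, 3 bases away, and at RICTOR, a core subunit of mTOR complex 2, 10 bases away. Next came HNRNPF, an RNA-binding splicing regulator, at 15 bases, and GANC, an alpha-glucosidase that shares its promoter region with TMEM87A, at 18 bases.

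At these starts the second of the deposited replicate columns was the higher one without exception, in 11 of 11 peaks. The columns carry no replicate number. The peak at HNRNPF, on chromosome 10 at 43408539 to 43410158, had −log10 p values of 4.73 and 18.5 in the first and second column. The peak between BTD and HACL1, on chromosome 3 at 15601394 to 15602258, had 5.21 and 22.8. At LIMCH1 (chromosome 4, 41537783 to 41538311) they were 5.36 and 11.3. The BOC peak was more even, with 8.10 and 9.50 on chromosome 3 at 113211169 to 113212218. Likewise TENM3, on chromosome 4 at 182448608 to 182449087, had 7.75 and 9.16. Of the 302 other FOXA3dCTD peaks at coding starts, 263 were also higher in the second column. The direction was thus not particular to the FOXA3-only peaks.

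FOXA3-only peaks were weak among FOXA3 peaks. The strength of a peak is taken here as the lower of its −log10 p values in both replicates. Its median was 7.02 over the 401, with 25th and 75th percentiles of 6.29 and 7.97 and a maximum of 15.3, whereas the other 6362 FOXA3dCTD peaks had a median of 7.75 and a maximum of 76.8. The medians differed by -0.726 (-0.831 to -0.519). The median −log10 IDR was 2.31 against 2.66, a difference of -0.345 (-0.392 to -0.289). The median width was 582 bases against 652, given as a description only, since a narrower peak is less likely to overlap another and the selection used overlap. FOXA3dCTD peaks were divided into 4 strength classes of about equal size. In the strongest class, 27 of 1691 were FOXA3-only (1.60%, 1.10 to 2.31). In the weakest class there were 127 of 1724 (7.37%, 6.23 to 8.70), and in the next class 161 of 1803 (8.93%, 7.70 to 10.3).

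This difference followed the number of FOXA1 and FOXA2 lists that a FOXA3dCTD peak met. The 977 peaks found in exactly 1 list had a median strength of 7.23, the 1376 in 2 lists 7.53, the 1854 in 3 lists 7.75 and the 2155 in all 4 lists 8.30. The FOXA3-only peaks thus stood at the low end of a graded order. Against the peaks of exactly 1 list, the difference in strength was -0.206 with an interval that reached 0 (-0.327 to 0.00727). The gradient lay mainly in the second replicate column. Its median rose from 10.1 for no list to 15.0 for all 4, while that of the first column went from 7.75 to 8.75.

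**Figure D1:**
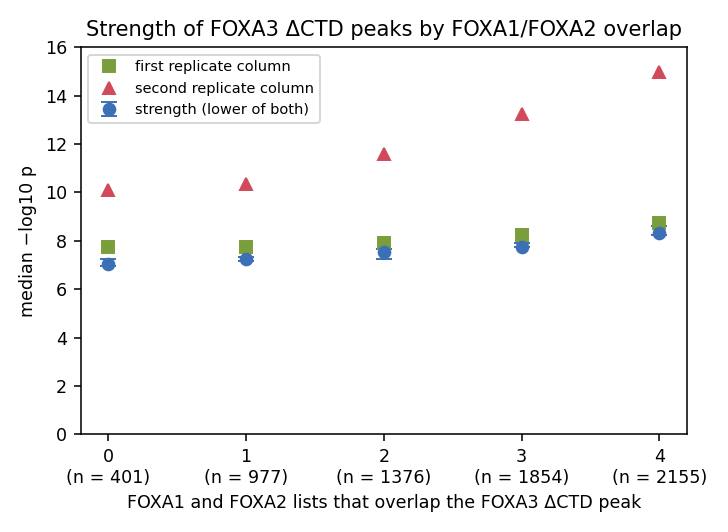
Median −log10 p of FOXA3dCTD peaks (vertical axis) by the number of FOXA1 and FOXA2 lists that overlap them (horizontal axis). Circles are the strength with its 95% interval, squares and triangles the medians of the first and second replicate column. Strength rises from 7.02 for the 401 FOXA3-only peaks to 8.30 for the 2155 peaks in all 4 lists.

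Both replicates called these peaks with unequal weight. The second column was the higher one in 290 of the 401 FOXA3-only peaks (72.3%) and in 80.7% of the other FOXA3dCTD peaks. It was more than 2 times as high in 62 of the FOXA3-only peaks (15.5%), compared with 30.0% of the others. The first column was more than 2 times as high in 15 of 401 FOXA3-only peaks and in 108 of 6362 others. Of the FOXA3-only peaks in gene-free stretches, described below, only 23 of 62 were higher in the second column, as were 280 of 742 other FOXA3dCTD peaks there. Which replicate is deeper is not known, and the part of depth in this pattern was not tested.

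**Figure D2:**
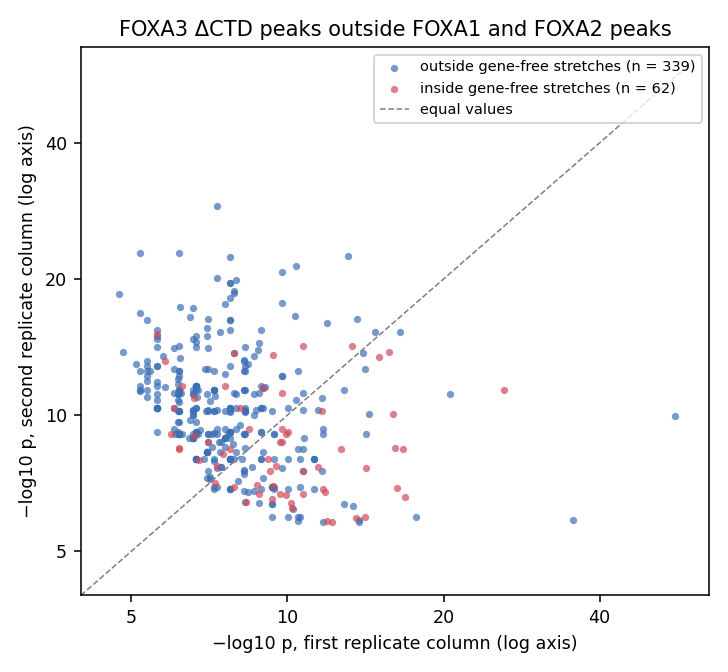
Each point is 1 of the 401 FOXA3-only peaks, with its −log10 p in the first replicate column (horizontal, log axis) and in the second (vertical, log axis); red points lie in gene-free stretches. Most blue points lie above the line of equal values and most red points below it, where 2 blue points of chromosome 21 reach 56.0 and 35.6 in the first column.

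The 10 strongest FOXA3-only peaks outside gene-free stretches were identified by position and gene. The first lay within CAPN2, which encodes a calpain protease, on chromosome 1 at 223720806 to 223721409, and had −log10 p values of 16.5 and 15.3 in both replicates. It lay 8902 bases from the nearest FOXA1 or FOXA2 peak. The next was on chromosome 22 at 43823678 to 43824416, with 14.8 and 15.3, at 712 bases from an end of SULT4A1, a sulfotransferase gene expressed in brain. Here the nearest FOXA1 or FOXA2 peak was 39443 bases away. Both replicates were about equal at these sites, which a ranking by the lower of both values favours. A peak within RSRC1, which encodes a splicing-related protein, had 13.99 and 13.7 on chromosome 3 at 158456090 to 158456904.

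The peak with the best IDR of all FOXA3-only peaks (−log10 IDR 4.12) lay in the overlapping genes LEPR, the leptin receptor, and LEPROT, on chromosome 1 at 65425498 to 65426153. Its values were 13.1 and 22.5, and it also overlapped a peak of the SOX2-FOXA2 CTD fusion. Peaks within LRMDA and STX3, the latter a syntaxin of vesicle fusion, had 14.1 and 12.6 on chromosome 10 at 76558274 to 76559756, and 20.6 and 11.1 on chromosome 11 at 59787009 to 59787365. At 107 bases from PABPC1, the gene of a poly(A)-binding protein, lay a peak with 11.7 and 10.9 on chromosome 8 at 100721833 to 100722699. The other three lay far from coding genes. One was 101 kb from JUN, the gene of an AP-1 subunit, on chromosome 1 at 58885120 to 58885754, with 11.9 and 15.96. Another, on chromosome 22 at 27045106 to 27045441, was 415 kb from CRYBA4 and had 13.6 and 16.3. The last, on chromosome 2 at 59295703 to 59296608, was 1055 kb from FANCL and had 12.9 and 11.3. Whether peaks within genes lie in exons or introns was not determined. Chosen after its value was seen, the peak with the highest second column of all 401 lay within AXIN2, a feedback inhibitor of Wnt signalling, on chromosome 17 at 65542612 to 65543292, with 7.31 and 29.0.

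Among the 5 strongest FOXA3-only peaks whose summit lay at most 1 kb from an end of a coding gene, SULT4A1, LRMDA and PABPC1 recur. The others lay at 297 bases from TEX38, on chromosome 1 at 46673740 to 46674097, with 8.61 and 11.1, and in ANKHD1-EIF4EBP3, on chromosome 5 at 140539629 to 140540755, with 8.30 and 12.5.

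Most FOXA3-only peaks lay away from starts and were spread over many genes. Their summit fell inside a protein-coding gene in 163 cases (40.6%, 36.0 to 45.5), against 42.1% of all FOXA3dCTD peaks. The difference from the other FOXA3dCTD peaks was -1.56 percentage points (-6.41 to 3.47). A further 84 (20.9%) lay outside coding genes but within 50 kb of one, and 92 (22.9%) lay farther away without being in a gene-free stretch. These shares were 21.8% and 24.3% among the other peaks. The 163 peaks fell in 164 genes, some of which overlap each other, and 70 of these genes also held another FOXA3dCTD peak. Only C1QTNF3 and TENM3 held 2 FOXA3-only peaks each. The other FOXA3dCTD peaks, a far larger set with 2685 inside coding genes, fell in 1966 genes, and 485 of these held 2 or more. TENM3 spans 1355 kb, and C1QTNF3 spans 227 kb.

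Genes of liver and endoderm were looked at because FOXA proteins are known there. Of all 19974 coding genes, 1.25% held a FOXA3-only peak or were the nearest to one within 50 kb, against 14.9% for the other FOXA3dCTD peaks. None of 30 hepatocyte genes, such as ALB and APOA1, was among the former, and 5 were among the latter. None of 20 endoderm and gut genes was reached by a FOXA3-only peak, and 2 were reached by the others. Among 20 osteoblast and mesenchymal genes the only one was SP7, the osteoblast regulator osterix. Its peak, on chromosome 12 at 53352588 to 53353261, lay 7.98 kb away with 9.42 and 6.95. None of 20 AP-1 and TEAD genes, 52 forkhead genes or 92 histone genes was reached, compared with 7, 11 and 4 for the other FOXA3dCTD peaks. Of 19 SOX genes, SOX6, a regulator of cartilage, held a FOXA3-only peak on chromosome 11 at 16110716 to 16111261, with 5.61 and 9.16. At a background of 1.25%, lists of this size hold too few peaks to show a difference.

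Most FOXA3-only peaks had a FOXA1 or FOXA2 peak within 10000 bases. The gap to the nearest one had a median of 5723 bases, with 25th and 75th percentiles of 1610 and 14633 and a largest value of 133984. It was at most 500 bases for 35 peaks (8.73%), at most 10000 bases for 251 (62.6%) and at most 50000 bases for 379 (94.5%). The nearest peak belonged to FOXA2dCTD for 133, FOXA1dCTD for 122, FOXA1FL for 90 and FOXA2FL for 56. These counts are descriptions, since overlap chose the peaks, and the 2 dCTD lists, which held the most peaks, were nearest most often. How near other positions of the genome lie to the many peaks of these lists was not computed.

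**Figure D3:**
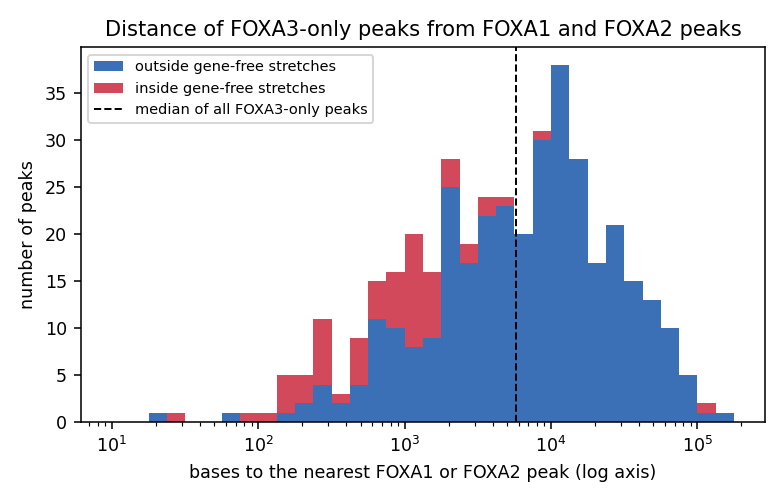
Number of FOXA3-only peaks (vertical axis) by the bases between a peak and the nearest FOXA1 or FOXA2 peak (horizontal, log axis), for peaks outside (blue) and inside (red) gene-free stretches. The median of all 401, marked by the dashed line, is 5723 bases. It is 7894 outside the stretches and 880 inside them.

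Just inside the limit, a peak within SYTL2 on chromosome 11 at 85788285 to 85788943 missed a FOXA2dCTD peak by 19 bases, with −log10 p values of 10.5 and 12.5. The next lay 30 and 68 bases away, on chromosome 13 at 17990958 to 17991716 and on chromosome 20 at 51318971 to 51319654. Their values were 8.32 and 6.43, and 8.30 and 10.3. Just outside it, the smallest overlaps were of 117 bases in FAM13A on chromosome 4 at 88823348 to 88824354, with 6.15 and 10.2, and of 158 bases in SDK1 on chromosome 7 at 3695253 to 3696727, with 7.17 and 11.3. The third was a peak of 169 bases, covered in full, on chromosome 1 at 123195651 to 123195819, with 7.44 and 11.02. How a site was classed thus depended on the lists it was held against. With the FOXA1 and FOXA2 lists limited to an IDR of 0.05, 1127 FOXA3dCTD peaks were FOXA3-only (16.7%). Of the 977 peaks that were kept out by 1 list alone, 478 met FOXA2dCTD only, 306 FOXA1dCTD, 113 FOXA1FL and 80 FOXA2FL.

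A minority of FOXA3-only peaks was concentrated in long stretches without annotated genes. The longest such stretch of each chromosome, 2.16 to 21.7 Mb long, was taken, and 62 FOXA3-only peaks had their summit there (15.5%, 12.3 to 19.3). Among all FOXA3dCTD peaks the share was 11.9%, and the difference from the other FOXA3dCTD peaks was 3.798 percentage points (0.488 to 7.74). This sign did not hold in other settings. It became -0.725 (-3.68 to 3.00) without peaks that lie within 500 bases of a FOXA1 or FOXA2 peak, and -9.62 (-13.9 to -4.95) against the peaks of exactly 1 list, of which 25.1% lay in the stretches. Of the 62, 33 were on chromosome 1 and 27 on chromosome 13. Among all 804 FOXA3dCTD peaks in the stretches, 559 and 196 were on these chromosomes, so this concentration was not particular to the FOXA3-only peaks. Without both chromosomes the difference was -0.253 (-0.825 to 1.498). The stretches run from 121571889 to 143299517 on chromosome 1 and from 409913 to 18176736 on chromosome 13. Whether they hold centromere or other repeat sequence, where reads can be placed on more than 1 copy, was not examined.

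**Figure D4:**
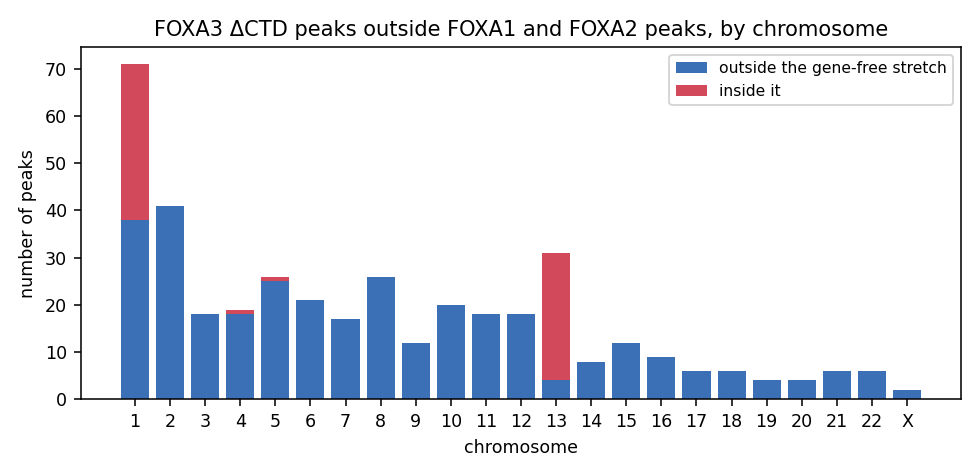
Number of FOXA3-only peaks on each chromosome, with those outside the longest gene-free stretch in blue and those inside it in red. The red part is 33 of 71 peaks on chromosome 1 and 27 of 31 on chromosome 13, with 1 each on chromosomes 4 and 5. Of all FOXA3dCTD peaks, 559 of 1102 on chromosome 1 and 196 of 265 on chromosome 13 lay in the stretch.

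Within the stretches, the strongest FOXA3-only peak was on chromosome 13 at 17380586 to 17381734, with 15.7 and 13.8. It was followed by chromosome 1 at 123451850 to 123452910, with 15.0 and 13.5, and chromosome 13 at 16789101 to 16789404, with 13.3 and 14.2. All 3 lay above the median of the other FOXA3dCTD peaks there, whereas most of the 62 did not. Inside the stretches the median strength was 7.20 for FOXA3-only peaks and 10.1 for the other 742 FOXA3dCTD peaks, a difference of -2.88 (-3.56 to -2.19). Of the 62, 57 had another FOXA3dCTD peak within 10 kb (91.9%), as had 676 of the 742 others (91.1%), a difference of 0.830 (-8.81 to 5.93). Over the 401 such neighbours were found for 89 (22.2%), against 19.8% of all FOXA3dCTD peaks, and outside the stretches for 32 of 339 (9.44%, 6.77 to 13.02) against 10.2% of the others. FOXA3-only peaks within 10 kb of each other numbered 18, and 16 of these were in the stretches. The remaining pair was on chromosome 2, nearest to DAPL1.

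The full-length FOXA3 list shared most of its rows with the FOXA3dCTD list. Of the 401 FOXA3-only peaks, 335 overlapped a FOXA3FL peak (83.5%, 79.6 to 86.8), close to the 84.9% of all FOXA3dCTD peaks. However, 311 of the 401 (77.6%) were rows identical in both lists in every column, from position to the p-values of both replicates, as were 4670 of the 6362 others (73.4%). The 335 overlaps include such rows, which are not separate measurements. In which of both FOXA3 forms the shared rows were measured cannot be told from the lists. A row found only in the FOXA3FL list was overlapped by 24 (5.99%, 4.05 to 8.75), against 11.2% of all FOXA3dCTD peaks. Of these 24, 23 were in the gene-free stretches. Most rows found only in the FOXA3FL list lay there, whatever they overlapped, with 226 of the 1101 outside. The remaining 66 met no FOXA3FL peak. Their strength was at most 6.15, and the identical rows started at 6.15, so strength separated both sets up to ties at that value. The same limit held among the other FOXA3dCTD peaks, so it is a property of the lists and not of the FOXA3-only peaks. Among these 66 were the peaks at LIMCH1, HNRNPF, FUNDC2 and BTD, and the peak in SOX6.

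SOX2 peaks, which the selection did not use, met a small share of FOXA3-only peaks and also of the other FOXA3dCTD peaks. Where they met FOXA3-only peaks differed between the combined lists and the lists of the first replicate. The combined SOX2FL list held 1365 peaks with an IDR of up to 0.100. The fusion list held 7844 with an IDR of up to 0.920, so it was longer and far less strict. In the combined lists, a SOX2FL peak was overlapped by 34 of the 401 (8.48%, 6.13 to 11.6), compared with 9.03% of all FOXA3dCTD peaks. For the SOX2-FOXA2 CTD fusion there were 39 (9.73%, 7.20 to 13.02), compared with 13.4%. The differences from the other FOXA3dCTD peaks were -0.591 percentage points (-3.05 to 2.62) and -3.92 (-6.59 to -0.523). The latter changed sign, to 1.90 (-0.734 to 4.89), when an overlap with FOXA1 and FOXA2 needed 50% of both peaks.

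Inside the stretches 33 of the 62 FOXA3-only peaks overlapped a SOX2 peak (53.2%, 41.0 to 65.1) and 31 a fusion peak (50%, 37.9 to 62.1). Among the other FOXA3dCTD peaks there, the shares were 76.4% (73.2 to 79.3) and 86.1% (83.4 to 88.4). The differences were -23.2 (-35.8 to -10.9) and -36.1 (-48.4 to -23.7) percentage points. In both the combined and the first-replicate lists the FOXA3-only peaks had the lower share inside the stretches. They were also the weaker ones there, and the part of strength in this difference was not tested.

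Outside the stretches only 1 of 339 FOXA3-only peaks overlapped a SOX2 peak (0.295%, 0.0521 to 1.65) and 8 overlapped a fusion peak (2.36%, 1.20 to 4.59). The shares of the other FOXA3dCTD peaks were 0.178% and 4.07%. For the fusion, the difference of -1.71 percentage points had an interval of -3.00 to 0.565. After the LEPR peak, the strongest of these 8 lay within HMGA2, an architectural chromatin protein gene, on chromosome 12 at 65948776 to 65949192 with 8.24 and 13.2, and 44.1 kb from ACTBL2 on chromosome 5 at 57435511 to 57436128 with 8.24 and 11.3. They were followed on the same chromosome by peaks at 118791952 to 118792456, with 7.57 and 8.91, and at 28397441 to 28397901, with 7.02 and 12.7. The peak at HNRNPF was the one that overlapped both SOX2 lists.

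The longer lists of the first SOX2 and fusion replicates gave the opposite distribution. Inside the stretches 0 of the 62 FOXA3-only peaks met a SOX2 peak, with an upper Wilson limit of 5.83%, and 2 met a fusion peak (3.23%, 0.889 to 11.02). The other FOXA3dCTD peaks there also met fewer than in the combined lists, 101 of 742 for SOX2 (13.6%) and 110 for the fusion (14.8%). The high shares inside the stretches thus held for the combined lists and not for those of the first replicate, and the cause was not tested. Outside the stretches, 19 FOXA3-only peaks met a SOX2 peak (5.605%, 3.62 to 8.59) and 36 a fusion peak (10.6%, 7.77 to 14.4), against 8.47% and 15.9% of the other FOXA3dCTD peaks. The authors' fold enrichment of the SOX2 peaks met had a median of 3.08, with a range from 2.24 to 7.54, and that of the fusion peaks a median of 3.25. Both were near the medians of the whole lists, 3.20 and 3.06.

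**Figure D5:**
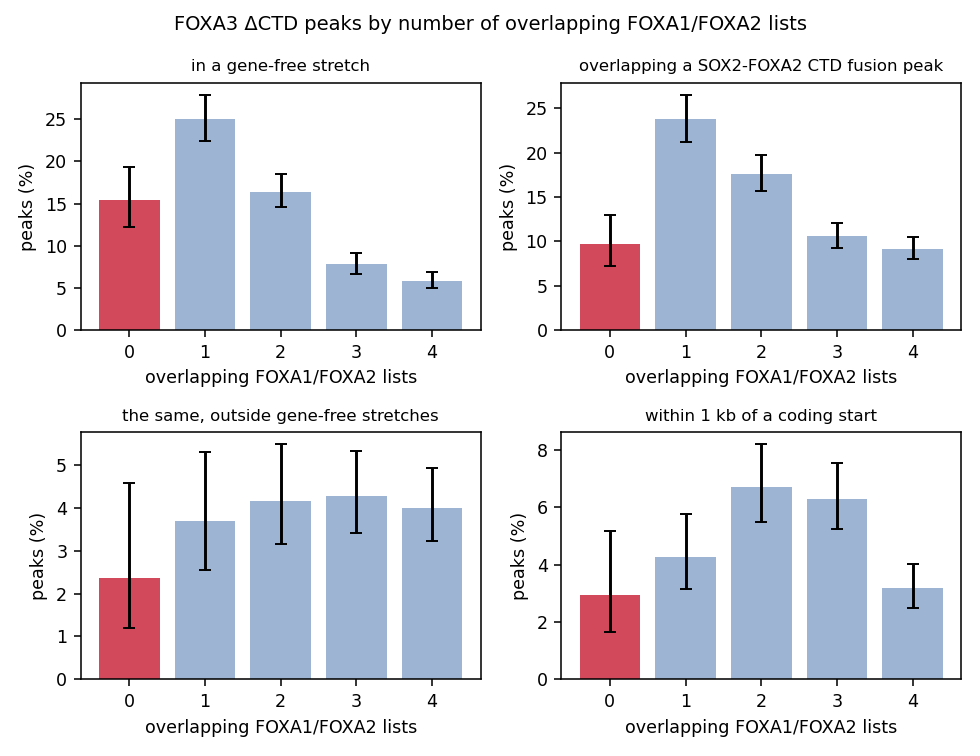
Share of FOXA3dCTD peaks (%, with Wilson 95% intervals) in gene-free stretches, over fusion peaks, over fusion peaks outside the stretches, and within 1 kb of a coding start, by the number of FOXA1 and FOXA2 lists that overlap them. The red bar, 0 lists, is the FOXA3-only set: 15.5%, 9.73%, 2.36% and 2.93%. In the first 2 panels it lies below the 25.1% and 23.7% of peaks in 1 list. In the first it lies above the 7.82% and 5.85% of peaks in 3 and 4 lists. In the third panel all intervals overlap. In the fourth it lies below the 6.70% and 6.30% of peaks in 2 and 3 lists and near the 3.17% of peaks in 4.

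A pair of FOXA3-only peaks on chromosome 21, in the region around the ribosomal RNA genes, had the largest values in the first replicate column among the 401. The one at 8257789 to 8260954 had −log10 p values of 56.0 and 9.95. The other, at 8398106 to 8401759, had 35.6 and 5.86 and overlapped RNA45SN3 and RNA28SN3, annotated as the precursor and the 28S ribosomal RNA. Of the other FOXA3dCTD peaks, 6 overlapped an annotated ribosomal RNA gene, each of them also met by at least 1 FOXA1 or FOXA2 list. Their first-column values were higher, from 45.6 to 107.8, against 8.08 to 27.6 in the second column, so the imbalance was not particular to the FOXA3-only peaks. These genes exist in many near-identical copies, so reads of one copy can be placed on another. No FOXA3-only peak overlapped any of 443 tRNA, 154 snRNA, 1196 snoRNA or 1911 miRNA genes, and the other FOXA3dCTD peaks overlapped 8, 3, 2 and 6 of these genes. Only 7, 3, 2 and 6 of the 6362 other peaks did so, too few for none among 401 to show a difference.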

How the data were processed

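Per the submitters' processing notes, the tools included Trim Galore, Bowtie2 2.4.4, SAMtools 0.1.18 and MACS2, with the build hg38; the peak limits are not given in the sources used here. The authors deposited 8 combined lists in the IDR layout, with −log10 p per replicate, −log10 IDR and a score of 125 times log2 of 1 over the IDR. Lists of the first replicate for SOX2 and the fusion also give the authors' fold enrichment. The other 4 of the 14 lists were copies. The members and gene lists were chosen with earlier results of these data known. Overlap needed 1 bp. Positions are 1-based, so each start is 1 higher than in the lists. Genes came from RefSeq GRCh38.p14 (59098 genes), and start sites from its promoter table, which held 15812 of the 19974 coding genes and was used without chromosome 8. Shares have Wilson and differences Newcombe intervals (statsmodels 0.14.6); intervals of medians came from binomial order statistics. The code was tested on simulated intervals. The planned motif search around summits needed a genome and was replaced by promoter windows. Named regions followed a rule: the 10 strongest outside and 3 strongest inside the stretches, the 5 strongest at gene ends, the 5 strongest over SOX2 or fusion peaks outside the stretches, those at listed genes within 50 kb, and those nearest the overlap limit. The 11 peaks at coding starts, the AP-1 motif and the ribosomal RNA peaks were chosen after values were seen.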

Additional observations from a re-analysis of the deposited data

How the results depend on the processing

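No paired analysis was possible because each group has 1 combined list, and for the same reason no replicate of the FOXA groups could be left out. For SOX2 and the fusion, the lists of the first replicate leave out the second. The motif share around summits was not run, having no genome. The 12 results had 101 alternative values: 61 lay inside the interval of the reported value (or within 1.5 times of it for the count of peaks), 33 lay outside it, and 7 more turned the sign of a difference whose interval excluded 0. Counting differences whose interval included 0, 23 values had the opposite sign; causes were not tested, except that looser or stricter overlap changes the number of peaks by construction. Differences are FOXA3-only minus other FOXA3dCTD peaks, in percentage points for shares. Without peaks within 500 bp of a FOXA1 or FOXA2 peak they were -3.77 for SOX2, -0.725 for gene-free stretches and -1.88 for neighbours. With 50% reciprocal overlap, 688 peaks were FOXA3-only, and the differences were -0.28 in −log10 IDR, 1.90 for the fusion, 7.80 for stretches, 0.389 for starts and 7.07 for neighbours. With FOXA1 and FOXA2 lists at an IDR of 0.05, 1127 were FOXA3-only, with -0.909 in strength, -0.40 in −log10 IDR, -4.35 for SOX2, -3.41 for stretches, 2.34 for starts (0.847 to 4.12) and -5.46 for neighbours. Without the rows identical in the FOXA3FL list, 90 remained, 26.7% of them in that list, with -0.185 in strength (-0.438 to 0.00088), -0.22 in −log10 IDR, -7.79 for SOX2, -9.65 for the fusion, -2.47 for stretches, 0.691 for starts and -3.33 for neighbours. Rows found only in FOXA3FL met 5.99%. The first replicate's lists gave -4.33 for SOX2 and -6.34 for the fusion. Alternatives chosen after seeing the data follow. Between the 25th and 75th percentiles of the strengths, where 100% lay in the FOXA3FL list because identical rows start below it, the differences were -0.0856 in strength (-0.181 to 0.0881; the setting itself selects on strength), -0.14 in −log10 IDR and 3.12 for SOX2. Against peaks of exactly 1 list they were -0.206 in strength (-0.327 to 0.00727), -0.11 in −log10 IDR, 10 bases in width, -8.51 for SOX2, -14.0 for the fusion, -9.62 for stretches, 5.64 for coding genes and -8.10 for neighbours. Without chromosomes 1 and 13 the stretches gave -0.253. The difference in strength was negative in all 8 alternatives run, but its interval reached 0 in these 3. That in −log10 IDR was negative in all 8, with intervals below 0. The depth of the libraries is unknown, and each comparison rests on 1 list per group.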

Other observations

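Rows found only in the full-length FOXA3 list gave a second view of sites outside FOXA1 and FOXA2. Of 1101 such rows on chromosomes 1 to 22 and X, 103 overlapped no FOXA1 or FOXA2 peak (9.36%), and 99 of these lay in the gene-free stretches. Outside the stretches there were 4 of 226. On the 35 further contigs that carried FOXA3dCTD peaks, 0 of 50 peaks lay outside the FOXA1 and FOXA2 lists.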
